A study of Mus musculus with 12 samples.

Results

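The 7 genes described here encode pieces of the γδ T cell receptor: the γ variable segments Trgv2 and Tcrg-V6, the γ constant regions Tcrg-C1, Tcrg-C2 and Tcrg-C4, the δ variable segment Trdv4 and the δ constant region Trdc. They were taken by symbol from the 32285 genes of the expression tables, and all 7 had counts. Their levels are given in γδ T cells and in αβ CD8 and CD4 T cells, by clone size and by pool of mice. The genes were chosen by their measured levels in these same cells, Trgv2 because it was higher in expanded CD8 clones, so the levels in expanded against singleton CD8 T cells and in γδ against αβ T cells are a description and carry no test.

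Female mice of 4 genotypes were killed at an age of 9 months, and T cells of their brains were sorted as CD4+, CD8+ or γδ receptor-positive cells, pooled over mice and sequenced as single cells from the 5′ end of the RNA, with a second library of αβ receptor chains. The 5XFAD-1 pool came from 4 mice and the 5XFAD-2 pool from 3 mice hemizygous for 5XFAD, a line with mutant human APP, expressed under a neuronal promoter, that forms amyloid plaques. The PS-5X pool came from 4 bigenic mice that carried both transgene sets. The PS19 pool came from 4 mice hemizygous for PS19, a mutant human MAPT (tau) transgene under the mouse prion protein promoter. The WT-1 and WT-2 pools came from 10 and 8 littermates with neither transgene. The 33 mice came from crosses of a congenic C57BL6 line with a line on a mixed B6C3F1 background. Every value is of a pool, so the spread is between pools and not between mice. Per the labels, a separate sequencing run held 5XFAD-2 and WT-2.

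In mice the γ locus holds 4 cassettes, each with its own joining and constant segment, and γ genes rearrange in thymocytes that later become either γδ or αβ T cells. An αβ T cell can therefore keep a joined γ gene, and its transcript need not give a receptor chain. The δ locus lies inside the α locus and is cut out when a Vα segment joins a Jα segment. Tcrg-V6 with Trdv4 (the segment called Vδ1) forms the receptor of an innate γδ subset, made before birth, that secretes IL-17 and settles in barrier tissues and the meninges. Signals of the IL-7 receptor through STAT5 open the γ locus.

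The γ members lie on chromosome 13 and the δ members on chromosome 14 of GRCm38, by the RefSeq annotation. Tcrg-V6 lies at chr13:19190368-19190929 and Tcrg-C1 at chr13:19214103-19216618, in the cassette that also holds Tcrg-V4, Tcrg-V5 and Tcrg-V7. Tcrg-C2 (chr13:19305060-19307551) and Trgv2 (chr13:19336573-19337026) belong to a second cassette, which runs in the opposite direction. Tcrg-C4 (chr13:19344558-19352343), next to Tcrg-V1, makes up the neighbouring cassette. Trdv4 lies at chr14:54075004-54075515 and Trdc at chr14:54142851-54146108. The γ constant genes other than Tcrg-C4 are close copies of each other, as are the variable segments Trgv2, Tcrg-V1 and Tcrg-V3. Reads that align equally well to several genes are not counted by Cell Ranger, so a count of one of these genes is uncertain to an unknown degree.

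After filters 17376 cells remained, of which 738 were γδ T cells, 10197 αβ CD8 T cells and 2694 αβ CD4 T cells. γδ T cells were the cells without an αβ receptor chain in the cluster that Il17a, Cd163l1 and Blk led and in which 70.0% of cells had a Trdc UMI (a UMI marks 1 captured RNA molecule). The pools gave 128, 123, 250, 67, 31 and 139 γδ T cells in 5XFAD-1, 5XFAD-2, PS-5X, PS19, WT-1 and WT-2, and the sum of UMIs per pool ran from 225648 to 1412773 for γδ, from 3536971 to 24006955 for CD8 and from 992416 to 4053807 for CD4 T cells. Pools shared 1 to 20 cell barcodes by pair. The WT-1 pool stood apart in its receptors: 41 αβ receptors, identical in the V genes and CDR3 bases of both chains, occurred in both 5XFAD-1 and WT-1, 33 in both PS19 and WT-1, 6 in both PS-5X and PS19 and 3 in both PS-5X and WT-1. Among expanded CD8 T cells, 76 of 91 in WT-1 and 382 of 618 in 5XFAD-1 had a receptor found in another pool. The counts were 126 of 345 in PS19 and 173 of 1850 in PS-5X, and 0 in 5XFAD-2 and WT-2. For expanded CD4 T cells they were 14 of 15 in WT-1, 101 of 142 in 5XFAD-1 and 18 of 56 in PS19. Counts such as 6 of 6 pools thus rest partly on the same receptors. Tests, and means over pools, are therefore also given without WT-1, and values listed by pool can be read without it.

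The clones at the ends of the Trgv2 range are shown by their CDR3 sequences, since the receptor is what makes a cell part of a clone. They are the 4 highest and the 4 lowest CD8 clones of 10 or more cells by Trgv2 level, with ties at 0 broken by depth. The sequences come from the deposited contigs, with the β chain on chromosome 6 and the α chain on chromosome 14, and the capitals mark the conserved first and last codons of the CDR3. The 4 highest clones read as follows.
PS-5X clonotype61, β: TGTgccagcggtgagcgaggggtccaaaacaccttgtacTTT
PS-5X clonotype61, first α: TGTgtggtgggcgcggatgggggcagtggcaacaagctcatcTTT
PS-5X clonotype61, second α: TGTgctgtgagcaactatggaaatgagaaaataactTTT
PS-5X clonotype62, β: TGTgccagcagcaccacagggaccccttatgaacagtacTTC
PS-5X clonotype62, α: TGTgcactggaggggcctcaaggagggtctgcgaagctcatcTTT
PS-5X clonotype57, β: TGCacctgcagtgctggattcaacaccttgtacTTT
PS-5X clonotype57, α: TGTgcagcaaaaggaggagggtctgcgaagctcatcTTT
PS-5X clonotype21, β: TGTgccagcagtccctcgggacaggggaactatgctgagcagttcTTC
PS-5X clonotype21, α: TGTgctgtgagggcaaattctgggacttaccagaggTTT

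The 4 lowest clones had no Trgv2 UMI, and for clonotype44 no α chain was listed.
WT-2 clonotype33, β: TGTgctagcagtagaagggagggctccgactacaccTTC
WT-2 clonotype33, α: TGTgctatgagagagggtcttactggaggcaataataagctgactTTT
PS-5X clonotype38, β: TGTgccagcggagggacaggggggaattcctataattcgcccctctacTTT
PS-5X clonotype38, α: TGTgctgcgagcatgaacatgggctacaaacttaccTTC
5XFAD-2 clonotype60, β: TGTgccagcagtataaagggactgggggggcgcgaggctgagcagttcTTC
5XFAD-2 clonotype60, α: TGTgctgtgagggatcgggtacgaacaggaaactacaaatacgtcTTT
PS-5X clonotype44, β: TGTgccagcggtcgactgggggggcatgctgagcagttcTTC

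The γδ T cells of the cluster led by Il17a carried RNA of mostly 1 receptor pair. Other cells without an αβ chain, in a cluster led by Fcer1g and Ncr1, were not classed as γδ T cells, and 1.27% of those 157 cells had a Tcrg-V6 UMI while 62.4% had Trdc. Of the 738 cells, 687 had UMIs of both Tcrg-V6 and Trdv4, 4 had Tcrg-V6 without Trdv4, 12 had Trdv4 without Tcrg-V6 and 35 had neither. The share of γδ T cells with a Tcrg-V6 UMI was 96.9% in 5XFAD-1, 91.1% in 5XFAD-2, 97.6% in PS-5X, 89.6% in PS19, 93.5% in WT-1 and 87.8% in WT-2. The exact binomial 95% intervals of these shares, which cover counting error only, overlapped between the groups: the lowest amyloid pool, 5XFAD-2, had 84.6 to 95.5%, and PS19 had 79.7 to 95.7%. Tcrg-V4, the segment of the other main IL-17 γδ subset, was seen without Tcrg-V6 in 16 cells.

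As levels, Tcrg-V6 averaged 1372 ± 94.6 UMIs per 1e6 UMIs of the class (CPM; mean ± SD, n = 6 pools) in γδ T cells and Trdv4 2770 ± 287 CPM. The constant regions averaged 342 ± 86.9 CPM for Trdc, 533 ± 63.6 CPM for Tcrg-C1, 61.6 ± 8.09 CPM for Tcrg-C2 and 165 ± 14.04 CPM for Tcrg-C4. Trgv2 averaged 298 ± 18.8 CPM and was found in 38.7 to 52.8% of the γδ T cells by pool. It was found about as often in γδ T cells with a Tcrg-V6 UMI (47.3% of 691 cells) as in those without (53.2% of 47 cells). No γ or δ chains were sequenced as receptors, so which γ segment a cell's receptor uses is not known from these data. Without WT-1, Trdc averaged 321 CPM, Tcrg-V6 1346 CPM, Trdv4 2790 CPM and Trgv2 306 CPM in γδ T cells.

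**Figure D1:**
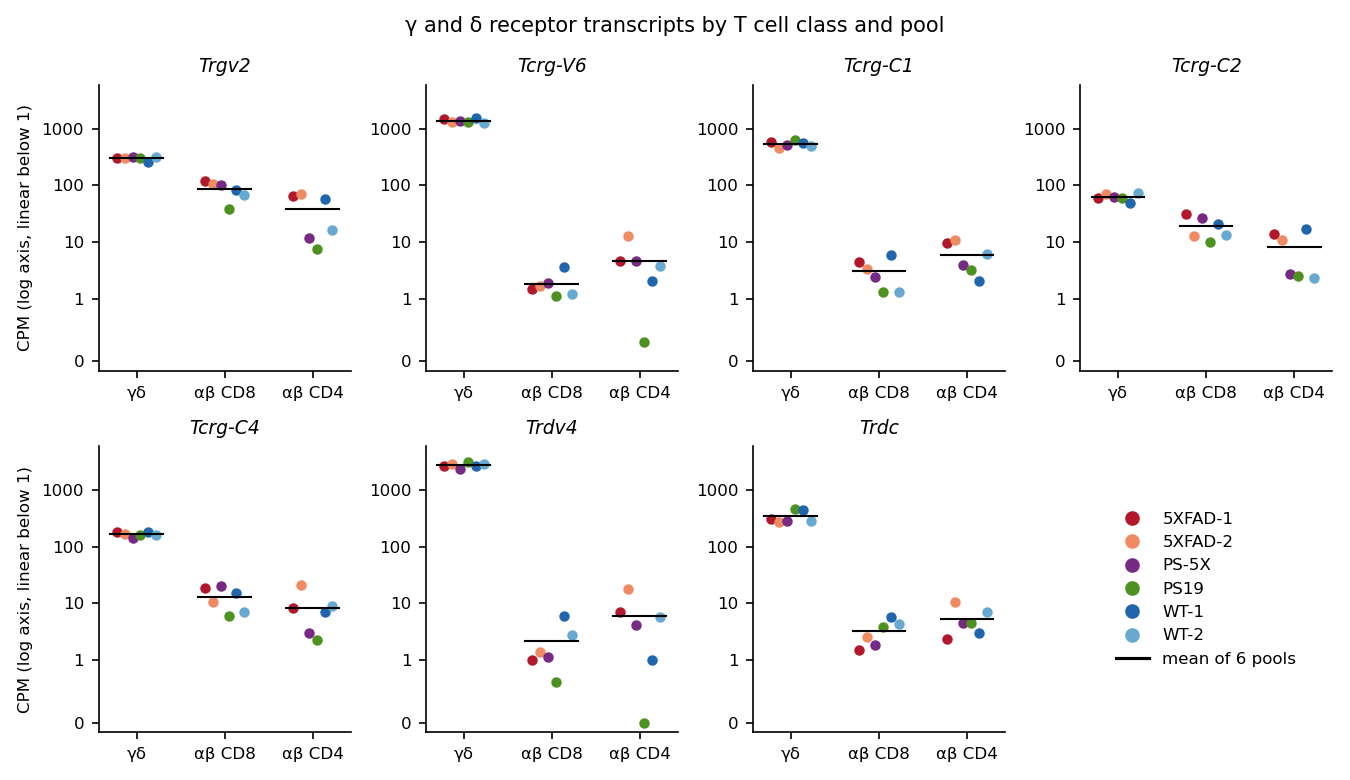
Level of each of the 7 receptor genes (CPM, on an axis that is logarithmic above 1 and linear below) in γδ, αβ CD8 and αβ CD4 T cells; a point is a pool and a bar the mean of 6 pools. Trgv2, Tcrg-C2 and Tcrg-C4 reached mean CD8 levels of 28.6%, 32.1% and 7.83% of those in γδ T cells, while the other genes stayed at or below 0.951%.

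In αβ T cells the 7 genes fell into low and high ones. Tcrg-V6, Trdv4, Trdc and Tcrg-C1 were close to absent: their CD8 levels averaged 0.131%, 0.0788%, 0.951% and 0.585% of those in γδ T cells of the same pool, and their CD4 levels 0.346%, 0.215%, 1.72% and 1.16%. Each was found in 0.373 to 0.990% of the CD8 and 0.557 to 1.56% of the CD4 T cells. Cells of the 2 classes had a similar depth, with median UMIs per cell of 5576 to 7495 in γδ and 5780 to 7924.5 in CD8 T cells by pool. Whether these shares come from free RNA in the droplets was not tested, and they were not read as expression of the gene. Trdc was more frequent in some clusters. In the CD8 cluster led by Gzmm and Fcgrt 6.80% of all cells, with or without an αβ chain, had a Trdc UMI, against 0.435 to 2.05% in the other CD8 clusters. Of the CD8 class, 10 of 106 cells in the cluster led by Fcer1g and Ncr1 and 4 of 18 in the γδ cluster had a Trdc UMI. Over all cells with an αβ chain, in any class or none, the shares were 13.98% of 186 and 43.5% of 131 in those clusters. Part of the UMIs lay in a few cells: 61 of the 112 Trdv4 UMIs of the CD8 class were in 18 cells of the γδ cluster, and 81 of the 93 Trdv4 UMIs of the CD4 class in 27 such cells.

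Trgv2, Tcrg-C2 and Tcrg-C4 were present at far higher shares in αβ cells. CD8 levels averaged 28.6 ± 9.63% of the γδ level for Trgv2, 32.1 ± 15.9% for Tcrg-C2 and 7.83 ± 3.80% for Tcrg-C4 (n = 6 pools). CD4 levels averaged 12.9 ± 9.97%, 14.4 ± 13.0% and 5.03 ± 4.05% in the same order. Without WT-1 the CD8 means were 28.2%, 30.0% and 7.74% and the CD4 means 11.2%, 10.2% and 5.26%. A Trgv2 UMI was seen in 1790 of the 10197 CD8 and 129 of the 2694 CD4 T cells. Not every αβ cell type had it: in the CD8 clusters led by Ccr7 and by Dapl1, genes of naive cells, 0.337% and 0.351% of singleton cells had a Trgv2 UMI, at median depths of 6929 and 6712 UMIs.

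CD8 T cells carried more of the C2 cassette than CD4 T cells. Trgv2 stood at 116, 106, 102, 38.7, 80.9 and 67.4 CPM in CD8 T cells of 5XFAD-1, 5XFAD-2, PS-5X, PS19, WT-1 and WT-2, against 64.7, 69.6, 11.8, 7.59, 56.4 and 16.5 CPM in CD4 T cells of the same pools. It was higher in CD8 in 6 of 6 pools, though the ranges overlapped across pools. The difference was 1.54 ± 0.25 on the log2 scale (SE; edgeR). The CD8 sums hold the expanded cells whose level brought Trgv2 into the set, so this difference is a description and its p is not given. Among singletons alone Trgv2 averaged 34.9 ± 12.0 CPM in CD8 and 20.9 ± 14.04 CPM in CD4 T cells (SD, n = 6 pools), with overlapping ranges. Tcrg-C2 was higher in CD8 by 1.65 ± 0.29 (SE; edgeR's quasi-likelihood test with pool as a block, Benjamini-Hochberg adjusted over all genes, adjusted p = 0.00058), with 31.1, 12.8, 26.9, 10.1, 20.9 and 13.0 CPM in CD8 T cells against 13.7, 11.0, 2.71, 2.53, 17.1 and 2.32 CPM in CD4 T cells. The CD8 sums of Tcrg-C2 hold the same expanded cells, and the part of clone size in its difference was not tested. Tcrg-C4 differed by 0.81 (edgeR, adjusted p = 0.10) and did not pass. The background of this comparison was wide, since 29.9% of the 10866 genes tested passed, 14.2% higher in CD8 and 15.7% lower.

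The members that passed in the other direction were lower in CD8: Tcrg-V6 by -1.296 ± 0.40, Tcrg-C1 by -1.05 ± 0.31 and Trdv4 by -1.59 ± 0.51 (log2, SE; edgeR, adjusted p = 0.024, 0.018 and 0.029). These calls rested on few cells. Of the CD4 class, 54 of 73 Tcrg-V6 UMIs, 81 of 93 Trdv4 UMIs and 30 of 98 Tcrg-C1 UMIs lay in the 27 cells of the γδ cluster. When classes were taken from named clusters instead, Tcrg-C1 differed by 0.03, Tcrg-V6 and Trdv4 were too low to test, and Trgv2 (3.51), Tcrg-C2 (3.81) and Tcrg-C4 were called. Without WT-1, 6 of the 7 genes passed, and without 5XFAD-1, 5XFAD-2 or PS-5X 3 genes passed, with Trgv2 and Tcrg-C2 among them each time. For Trgv2 these calls are a description, for the reason given above.

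Within the CD4 class Trgv2 was uneven between cell types. Of its 511 UMIs, 364 lay in 561 cells of clusters without a lineage name, 62 in 300 cells of CD8 clusters and 69 in 1806 cells of CD4 clusters, which gave 86.0, 37.7 and 6.59 CPM. The unnamed clusters were mainly 1 led by Gzma, Gzmb and Itgae and 1 led by Il4, Ccr8, P2rx7 and Zfp683. Marker genes of natural killer (NK) cells summed to 150.1 to 215 CPM in the CD8 class and 36.7 to 105 CPM in the CD4 class, and none of the 6 was at 0 in either. Their part in the difference was not tested.

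In αβ CD8 T cells the 3 expressed γ genes were higher in expanded clones (receptors seen in at least 2 cells of a pool) than in singletons. Trgv2 stood at 216, 233, 187, 115, 308 and 160.2 CPM in expanded cells of 5XFAD-1, 5XFAD-2, PS-5X, PS19, WT-1 and WT-2, against 55.5, 38.4, 30.9, 18.9, 34.1 and 31.8 CPM in singletons. The lowest expanded value was above the highest singleton value, a separation not counted over all genes. The ratio within a pool ran from 3.90 in 5XFAD-1 to 9.04 in WT-1. The log2 difference was 2.34 for Trgv2, 2.35 for Tcrg-C2 and 2.24 for Tcrg-C4, against -0.76 for Tcrg-V6, -0.06 for Tcrg-C1, 0.18 for Trdv4 and -0.52 for Trdc. The same contrast called 29.3% of all 11057 genes (15.5% higher and 13.8% lower), and it was this contrast that brought Trgv2 into the set, so the difference is given as a description. For Trgv2 it was 1.45 among cells without a UMI of a set of naive-cell genes that includes Ccr7, Lef1, Dapl1 and Igfbp4, 1.80 when every clone counted once, and 2.26 without WT-1.

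Tcrg-C2 showed the same order in every pool, with 60.9, 25.3, 49.8, 30.0, 76.2 and 32.6 CPM in expanded against 12.9, 6.15, 7.79, 4.88, 9.55 and 5.54 CPM in singleton CD8 T cells. Tcrg-C4 stood at 36.9, 23.3, 36.9, 13.4, 64.6 and 13.0 CPM in expanded against 7.18, 3.98, 5.65, 4.18, 4.77 and 4.76 CPM in singleton CD8 T cells. Neither gene's groups overlapped, which was also not counted over all genes in this contrast, where 29.3% of genes were called. Trdc was found in 0.565% of expanded and 1.22% of singleton CD8 T cells, and Tcrg-V6 in 0.442% of expanded CD8 T cells and 0.702% of singletons, shares as low as those above.

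The rise with clone size was gradual. The share of CD8 T cells with a Trgv2 UMI averaged 8.67 ± 2.22% in singletons, 16.6 ± 5.66% in clones of 2 cells, 27.0 ± 17.0% in clones of 3 to 4, 37.6 ± 22.2% in clones of 5 to 9 and 40.7 ± 14.3% in clones of 10 or more (mean ± SD over 6 pools). Median depth was 6493 to 8510 UMIs per singleton and 3926 to 5792 per cell of the largest clones, so larger clones were not sequenced deeper. Cells with at least 3000 UMIs were also thinned to 3000 and the rest left out, which gave means of 6.18%, 13.6%, 21.5%, 29.9% and 33.8%. More cells of large clones were left out. In WT-2, 382 of 445 cells in clones of 5 or more stayed, against 1273 of 1331 singletons. The bins from 3 cells up overlapped widely between pools. Without WT-1 the means at full depth were 8.58%, 14.9%, 20.4%, 29.2% and 38.8%. WT-1 had only 5 cells, of 1 clone, in the bin of 5 to 9 cells, and PS19 fell to 17.2% in its 5 clones of 10 or more cells.

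**Figure D2:**
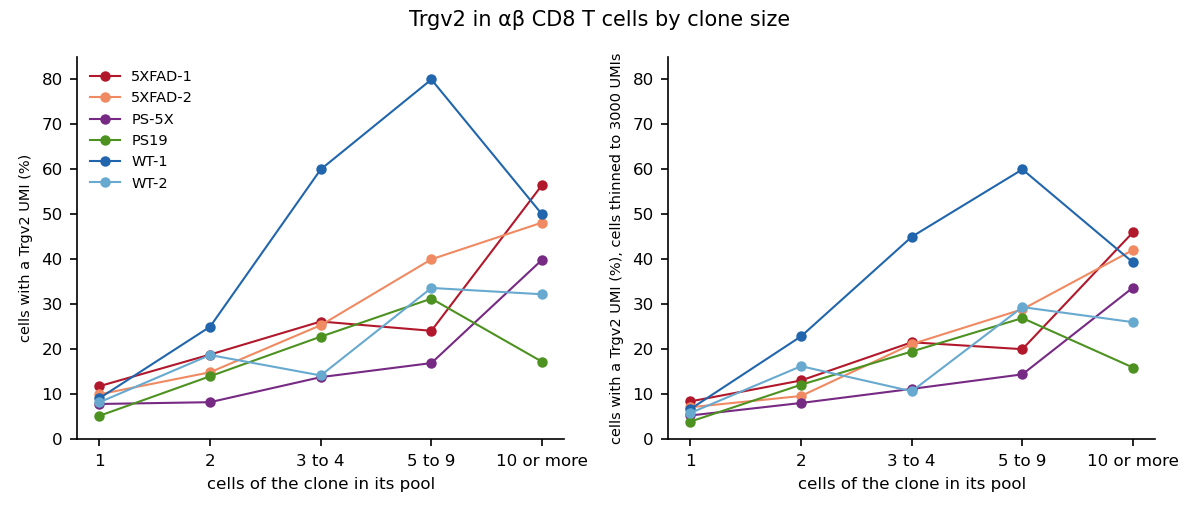
Share of αβ CD8 T cells with at least 1 Trgv2 UMI (%) by the number of cells of the clone in its pool, at full depth (left) and in cells of at least 3000 UMIs thinned to 3000 (right). A line is a pool. At full depth the mean over pools went up from bin to bin, while PS19, WT-1 and WT-2 had lower shares in the largest bin than in the one before.

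The test of clone size compared large clones (5 or more cells) with small expanded clones (2 to 4 cells), inside the expanded cells. It is not the contrast that chose Trgv2, but it is not independent of that choice. Of the 4068 expanded cells 624 were in clones of 5 to 9 and 2163 in clones of 10 or more. Large clones thus held most of the cells on which Trgv2 was chosen, and its p here is no separate support. Tcrg-C2 and Tcrg-C4 were higher in the same expanded cells, by 2.35 and 2.24 on the log2 scale against singletons. Their p below is therefore no separate support either. Trgv2 stood at 266, 299.5, 241, 153, 376 and 195 CPM in large clones of 5XFAD-1, 5XFAD-2, PS-5X, PS19, WT-1 and WT-2, against 113, 114, 53.5, 84.6, 268 and 102 CPM in small clones. It was higher in large clones in 6 of 6 pools, by 1.22 ± 0.15 on the log2 scale (SE; edgeR's quasi-likelihood test with pool as a block, adjusted p = 0.00043). Only 2.35% of the 9367 genes tested passed in this comparison, 1.21% higher and 1.14% lower, and 3 of the 5 members that were high enough to test were called, all higher.

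Tcrg-C2 was higher in large clones by 1.67 ± 0.22 (log2, SE; edgeR, adjusted p = 0.00087), with 77.5, 35.3, 65.8, 36.8, 150.2 and 38.9 CPM against 26.4, 7.47, 10.5, 24.8, 31.8 and 22.3 CPM in small clones. Tcrg-C4 was higher by 1.84 ± 0.33 (edgeR, adjusted p = 0.0079), with 51.8, 30.1, 50.03, 17.4, 75.1 and 14.8 CPM in large clones against 6.02, 11.2, 4.75, 10.4, 58.3 and 9.98 CPM in small clones. Both were higher in large clones in 6 of 6 pools. Trdc had 7 UMIs in large and 43 in small clones and did not pass (edgeR, adjusted p = 0.055), nor did Tcrg-C1 (adjusted p = 0.65), and Tcrg-V6 and Trdv4 were too low to test.

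The 3 calls held without WT-1 (Trgv2 1.33, edgeR adjusted p = 0.00045), without shared receptors and among non-naive cells, where Trgv2 differed by 0.80 (edgeR, adjusted p = 0.011). No member passed when large clones began at 10 cells (Trgv2 0.88, edgeR adjusted p = 0.15), nor when the pool was left out of the model (1.13, adjusted p = 0.098). Calls over all genes fell there as well, to 45 higher and 58 lower of 9846 and to 8 and 10 of 8500. Tcrg-C4 no longer passed without PS-5X (1.298, edgeR adjusted p = 0.066), and Trdc passed there instead.

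**Figure D3:**
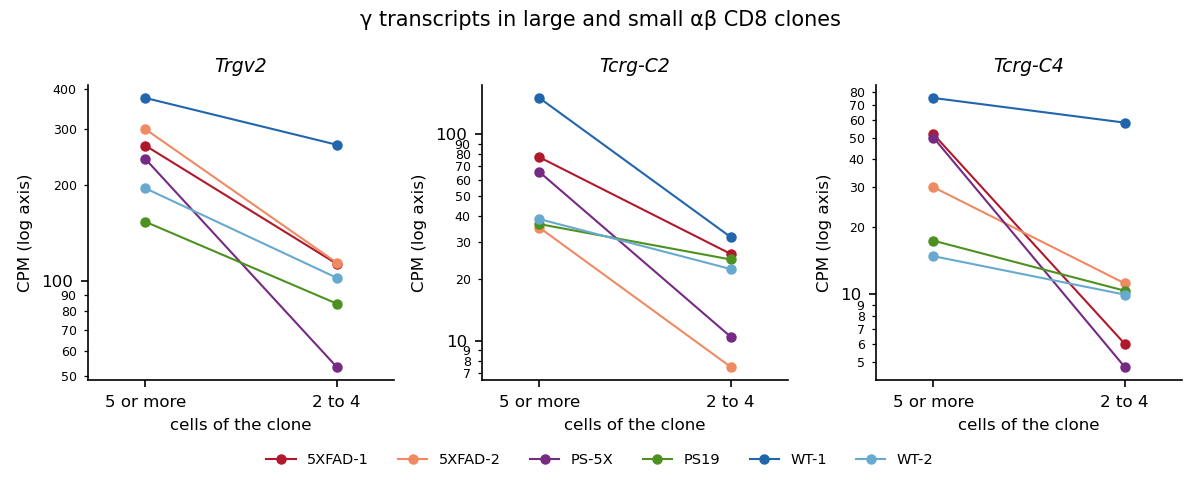
Levels of Trgv2, Tcrg-C2 and Tcrg-C4 (CPM, log axes) in αβ CD8 clones of 5 or more cells and of 2 to 4 cells; lines join the 2 values of a pool. All 18 lines fall from large to small clones, with means for Trgv2 of 255 ± 78.5 CPM in large and 122 ± 74.6 CPM in small clones (SD, n = 6 pools).

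Large clones differed sharply from each other. Of the 75 clones with at least 10 CD8 T cells, 16 had no Trgv2 UMI, 10 had 1 to 3 UMIs and 25 had the transcript in at least 50% of their cells, with a median share of 27.8% and a range from 0 to 100%. At the top, all 14 cells of clonotype61 of PS-5X (1592 CPM; exact 95% interval of the share 76.8 to 100%), all 10 of clonotype57 (1208 CPM) and all 29 of clonotype21 (1151 CPM; 88.1 to 100%) had a Trgv2 UMI, as did 11 of the 13 cells of clonotype62 (1264 CPM). At the bottom, 0 of 21 cells of clonotype33 of WT-2 had one, although these cells held 210698 UMIs, and a count of 0 allows a level of up to 14.2 CPM. Clonotype38 and clonotype44 of PS-5X and clonotype60 of 5XFAD-2 were also at 0, which allows up to 22.2, 28.8 and 26.6 CPM. High and low clones both came from PS-5X. Clonotype61, with the highest level, and clonotype38 and clonotype44, at 0, had the same β variable segment call and differed in the CDR3 printed above.

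The 5 clones of over 60 cells showed the same spread. Clonotype1 of PS-5X, with 360 cells, had Trgv2 in 36.1% of cells (31.1 to 41.3%) and Tcrg-C4 in 84 UMIs, yet no Tcrg-C2 UMI. Clonotype3 of PS-5X (106 cells) had it in 63.2%, clonotype4 of 5XFAD-1 (98 cells) in 72.4% and clonotype2 of 5XFAD-1 (127 cells) in 37.8% of cells, each with Tcrg-C2 and Tcrg-C4 UMIs. Clonotype5 of PS-5X (65 cells) had Trgv2 in 1.54% of cells (0.0389 to 8.28%).

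Constant regions went with Trgv2 by clone. Of the 41 clones with more than 10 Trgv2 UMIs, 27 had at least 3 UMIs of both Tcrg-C2 and Tcrg-C4, 11 of Tcrg-C2 alone, 1 of Tcrg-C4 alone and 2 of neither. Of the 26 clones with 3 or fewer Trgv2 UMIs, 1 reached 3 UMIs of Tcrg-C2 and 1 of Tcrg-C4. Trgv2 and Tcrg-C2 share a cassette, while Tcrg-C4 lies in the neighbouring one.

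**Figure D4:**
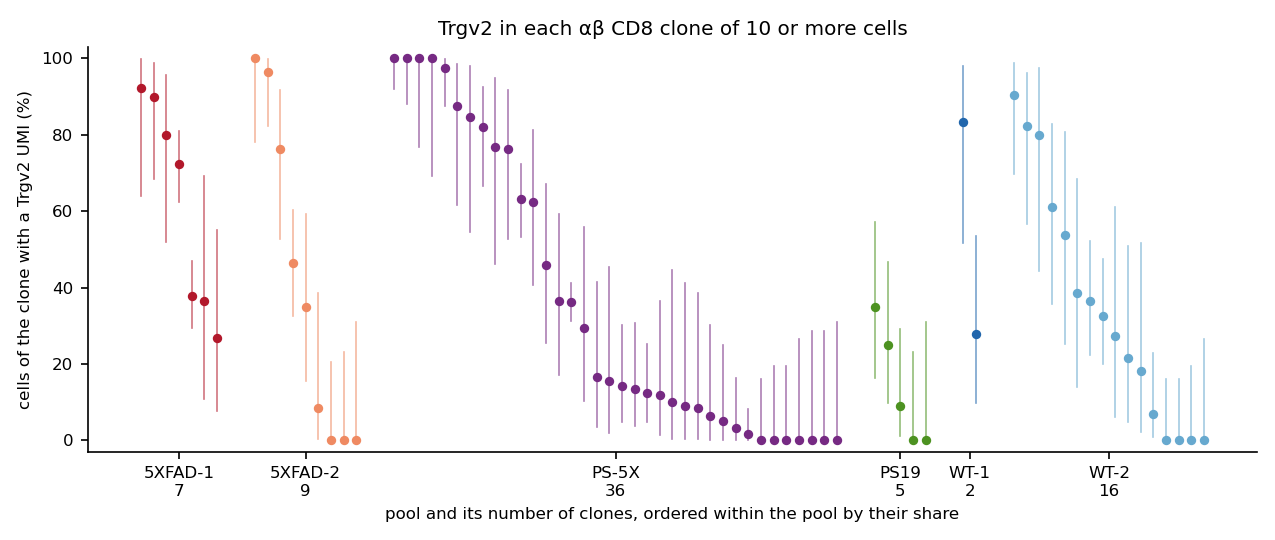
Share of cells with a Trgv2 UMI (%) in each of the 75 αβ CD8 clones of 10 or more cells, by pool; points are clones and lines are exact binomial 95% intervals of the share. Clones at 0 and clones above 50% occurred side by side in 5XFAD-2, PS-5X and WT-2.

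The presence of Trgv2 RNA was shared among clonemates. For every CD8 T cell in a clone of at least 2 such cells (698 clones), the share of the other cells of its clone with a Trgv2 UMI was taken and averaged over cells. Around cells that had a UMI it was 61.9, 69.4, 64.4, 57.9, 69.2 and 61.6% in 5XFAD-1, 5XFAD-2, PS-5X, PS19, WT-1 and WT-2, against 24.4, 18.2, 15.7, 11.2, 24.1 and 14.5% around cells that had none. The ranges did not overlap. In clones of exactly 2 cells, where no large clone can dominate, the shares were 46.2 to 88.9% around cells with a UMI and 3.70 to 11.6% around cells without.

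Other genes were measured in the same way for scale. Trbc1, whose use instead of Trbc2 is fixed when the β gene joins, averaged 58.1% around cells with a UMI against 26.4% around cells without. Tcrg-C2 averaged 41.6% against 11.7%, Tcrg-C4 27.4% against 9.61% and Tcrg-V1 26.0% against 3.42%. Il7r, the IL-7 receptor α chain, which changes with cell state, averaged 61.2% against 34.2%, and the signalling genes Jak3 and Stat5b 34.9% against 30.2% and 33.9% against 28.9%. Without WT-1 the Trgv2 means were 63.0% around cells with a UMI and 16.8% around cells without. These are descriptions, since clonemates also share their pool and often their cluster.

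**Figure D5:**
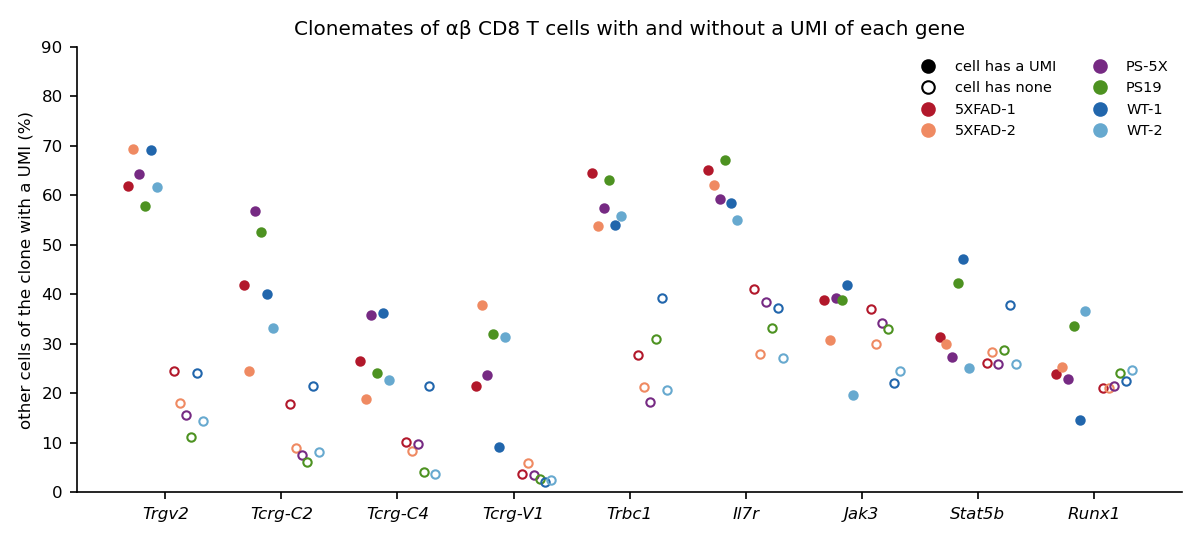
Share of the other cells of the clone with a UMI of the gene (%), averaged over αβ CD8 T cells that had a UMI of it (filled) or had none (open), for Trgv2, the γ genes Tcrg-C2, Tcrg-C4 and Tcrg-V1, and 5 comparison genes; colours are pools. For Trgv2 the filled points lie between 57.9 and 69.4% and the open ones between 11.2 and 24.4%.

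The receptors found in a pair of pools were compared for Trgv2 between the pools. Of the 41 receptors shared by 5XFAD-1 and WT-1, 15 had Trgv2 UMIs in both pools, 18 in neither, 3 in 5XFAD-1 only and 5 in WT-1 only. Cells of these receptors stood at 271 CPM in 5XFAD-1 (395 cells) and 288 CPM in WT-1 (78 cells). Of the 33 receptors shared by PS19 and WT-1, 7 had UMIs in both, 20 in neither, 4 in PS19 only and 2 in WT-1 only. Of the 6 shared by PS-5X and PS19, 1 had UMIs in both, 2 in neither and 3 in PS-5X only, and of the 3 shared by PS-5X and WT-1, 2 had them in both and 1 in neither. A clone of few cells can be at 0 by depth alone. Whether cells or reads crossed between pools, which would also give the same state in both, was not tested, so the values are given with no reading of them.

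The CD8 clusters differed in Trgv2, and in most the expanded cells were higher. The cluster led by Ccl3, Ccl4 and Pdcd1 (the inhibitory receptor PD-1) had the highest levels, with 304 CPM in expanded and 182 CPM in singleton cells. The cluster led by the heat shock genes Hspa1a and Hspa1b had 234 and 64.9 CPM, that of interferon-stimulated genes such as Cxcl10 and Ifit3 162 and 44.9 CPM, and that led by Cxcr4 and Ly6c1 84.6 and 34.9 CPM, each expanded first. The cluster of Gzma, S1pr5 and Cx3cr1, genes of circulating effector cells, had 63.7 and 40.8 CPM. The cluster led by Gzmm and Fcgrt had 16.4 and 12.7 CPM, but on 6 UMIs in 53 expanded cells. The 1 pool with at least 20 expanded cells there was at 0, while singletons ran from 2.72 to 29.2 CPM by pool, so no difference is read from this cluster.

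The genes with a pattern most like that of Trgv2 were sought over 30 sums of 6 pools by 5 cell groups (γδ, and expanded and singleton CD8 and CD4). By Pearson correlation of log2(CPM + 1) over 6173 genes outside the receptor loci, they were Pdcd1 (r = 0.935), Pvrig (0.929), another inhibitory receptor, Lax1 (0.908), an adaptor that dampens receptor signals, Nedd4 (0.905), a ubiquitin ligase, and Selplg (0.882), the ligand of P-selectin. Those closest to Trdc were Clnk (0.962), Il17re (0.961), a receptor subunit for IL-17 family cytokines, Mmp25 (0.960) and Ablim3 (0.960). The sums share libraries and depth, and the values for Trdc follow the step between γδ and αβ cells. Those for Trgv2 follow in part the step between expanded and singleton cells, on which it was chosen. Pdcd1 averaged 430 CPM in expanded and 102 CPM in singleton CD8 T cells. Shared regulation was not tested.

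Expanded CD4 T cells were also higher in Trgv2 than CD4 singletons, but single clones decided the level in some pools. Trgv2 stood at 127, 249.8, 17.5, 17.0, 403 and 17.4 CPM in expanded CD4 T cells of 5XFAD-1, 5XFAD-2, PS-5X, PS19, WT-1 and WT-2, against 31.4, 43.7, 10.7, 6.18, 16.8 and 16.4 CPM in singletons. It was higher in expanded cells in 6 of 6 pools, by 1.96 ± 0.37 on the log2 scale (SE; edgeR's quasi-likelihood test with pool as a block, adjusted p = 0.0032), and in WT-2 the values were close. Tcrg-C2 was higher by 2.58 ± 0.45 (edgeR, adjusted p = 0.0018), with 28.8, 49.9, 2.91, 14.6, 108 and 6.53 CPM in expanded against 5.66, 5.38, 2.67, 0.727, 6.74 and 1.67 CPM in singleton cells. In all 8.84% of the 8879 genes tested passed (4.07% higher and 4.78% lower), and 3 of the 6 members tested.

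A single clone held 72.0% of the Trgv2 UMIs of expanded CD4 T cells in 5XFAD-1 (28 cells) and 82.9% in WT-1 (4 of only 15 cells). Without the clone that held most Trgv2 UMIs in each pool, the level was 43.1, 177, 10.3, 7.56, 105 and 8.91 CPM in the pool order above. It was then below the singletons in PS-5X and WT-2, and above them in the other 4 pools. Of the 260 Trgv2 UMIs of expanded CD4 T cells, 73.1% lay in clusters without a lineage name and 7 UMIs in the 145 cells of CD4 clusters. NK marker genes summed to 2.44 to 276 CPM in expanded against 33.7 to 79.6 CPM in singleton CD4 T cells, and their part was not tested. Without WT-1 Trgv2 differed by 1.53 (edgeR, adjusted p = 0.0077), without shared receptors by 1.33 (adjusted p = 0.00018), and among non-naive cells by 1.40, which did not pass (adjusted p = 0.12). With classes taken from named clusters no member was high enough to test.

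Trdv4 was the member called lower in expanded CD4 T cells (edgeR, adjusted p = 0.0084), on 1 UMI in 483 expanded cells against 92 UMIs in 2211 singletons. Of those 92 UMIs, 81 lay in 5 singleton cells of the γδ cluster. With doublets kept the direction turned, to 0.14 on the log2 scale (edgeR, adjusted p = 0.97). Tcrg-C1, Tcrg-C4 and Trdc did not pass, and Tcrg-V6 was too low to test.

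Whether amyloid changed the γδ receptor transcripts was asked in 1 model of all 6 pools with an amyloid and a tau term. In γδ T cells 0 of 7 members passed for amyloid, where 0.121% of 8234 genes did, and 0 of 7 for tau, where 0.146% did (0.0121% higher and 0.134% lower). Trdc stood at 307, 269 and 288 CPM in the pools with the 5XFAD transgenes (5XFAD-1, 5XFAD-2, PS-5X), against 458, 448 and 281 CPM in PS19, WT-1 and WT-2, a difference of -0.37 ± 0.17 on the log2 scale (SE; edgeR, adjusted p = 0.93). WT-2 lay among the amyloid pools. The other 6 members differed by -0.10 to 0.09 for amyloid. Without WT-1, 0 of 7 members passed for either term, and Trdc differed by -0.24 for amyloid. In the γδ cells, Il17a was the only called gene of 13 tested on a list of γδ program genes, higher with amyloid by 1.29 ± 0.17 (edgeR, adjusted p = 0.0032).

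The share of γδ T cells with a Tcrg-V6 UMI averaged 95.2 ± 3.59% in amyloid pools and 90.3 ± 2.96% in the others (SD, n = 3 each). The difference of 4.89 percentage points gave p = 0.20 (exact permutation test over pools, two-sided), where 3 against 3 pools can go no lower than 0.1. Among the 4 pools sequenced together the difference was 5.69 points, between 5XFAD-2 and WT-2 it was 3.29 points, and without WT-1 it was 6.52 points.

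In αβ CD8 T cells 0 of 7 members passed for amyloid, and 0% of the 11720 genes tested did by edgeR, with 1117 genes at an unadjusted p under 0.05 and 69 calls by DESeq2. Trgv2 stood at 116, 106 and 102 CPM in the amyloid pools, listed as before, against 38.7, 80.9 and 67.4 CPM in PS19, WT-1 and WT-2. The groups did not overlap, a separation not counted over all genes. The log2 difference was 0.87 ± 0.16 (SE; edgeR, adjusted p = 0.20), 0.99 without WT-1 (adjusted p = 0.071) and 0.86 by DESeq2, which called it (adjusted p = 0.0012). The groups also differed in the share of CD8 T cells in expanded clones, with 618 of 1459, 490 of 1193 and 1850 of 3720 cells in the amyloid pools against 345 of 1388, 91 of 432 and 674 of 2005 cells in PS19, WT-1 and WT-2. Within expanded cells the amyloid pools (187 to 233 CPM) lay inside the range of the others (115 to 308 CPM). The value of 308 CPM was that of WT-1. Without WT-1 all amyloid pools lay above the others, PS19 at 115 CPM and WT-2 at 160 CPM, which was not counted over all genes either. In singletons 1 amyloid pool, PS-5X with 30.9 CPM, lay inside the range of the others. The part of clone size in the difference was not tested further.

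Trdc in CD8 T cells was low throughout, at 1.48, 2.59 and 1.83 CPM in the amyloid pools against 3.78, 5.65 and 4.32 CPM in PS19, WT-1 and WT-2 (edgeR, adjusted p = 0.27). Tau gave 0 of 7 members in CD8 T cells, where 0% of genes passed by edgeR, with 628 genes at an unadjusted p under 0.05 and 23 calls by DESeq2. Trgv2 stood at 102 and 38.7 CPM in PS-5X and PS19, against 116, 106, 80.9 and 67.4 CPM in the pools without the tau transgene, and differed by -0.44 ± 0.17 (SE; edgeR, adjusted p = 0.91). It ran from -0.87 without PS-5X to -0.09 without PS19 when single pools were left out, was -0.37 without WT-1, and passed with no filter on low counts (-0.44, edgeR adjusted p = 0.027).

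In αβ CD4 T cells 0 of 7 members passed for amyloid, as did 0% of the 10259 genes tested (468 at an unadjusted p under 0.05 and 3 by DESeq2). For tau, 0 of 7 members passed and 0.00975% of genes did. Trgv2 stood at 11.8 CPM in PS-5X and 7.59 CPM in PS19, against 64.7, 69.6, 56.4 and 16.5 CPM in 5XFAD-1, 5XFAD-2, WT-1 and WT-2, so both tau pools lay below the other 4, a separation not counted over all genes. The log2 difference was -2.26 ± 0.40 (SE; edgeR, adjusted p = 0.26). With the sequencing run as a replicate block it was -2.56 and passed (edgeR, adjusted p = 0.0081), as it did by DESeq2 (adjusted p = 0.00015) and without WT-2 (-2.58, adjusted p = 0.015), while without WT-1 it was -2.0 (adjusted p = 0.32). With classes from named clusters it was -0.41 (edgeR, adjusted p = 0.95). B and plasma cell genes summed to 150 to 1837 CPM in CD4 T cells of the amyloid pools, highest in 5XFAD-2, against 164 to 206 CPM in the others, and their part was not tested.

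Other genes of the γ and δ loci were followed as a list of 19. In CD8 against CD4 T cells 6 were high enough to test: the variable segments Tcrg-V1, Tcrg-V3 and Tcrg-V7 were higher in CD8, by 1.77, 1.95 and 2.73 on the log2 scale, and Tcrg-V4 and Trdv1 were lower, by -1.24 and -0.84, where 29.9% of all genes passed. Their levels in CD8 T cells were low, with Tcrg-V1 at 10.9, 13.2, 6.46, 2.49, 4.52 and 5.92 CPM by pool. In large against small CD8 clones 0 of the 4 tested passed. In expanded against singleton CD4 T cells the δ segments Trdv1 and Trdv2-2 were lower, 2 of 3 tested, where 4.78% of all genes were lower. The log2 values were -7.03 and -6.87, and these calls rested on few cells. By pool, 0.758 to 1.95% of all CD4 T cells had a Trdv1 UMI and 1.14 to 4.12% a Trdv2-2 UMI.

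Among 9 known regulators of γ locus opening, 1 passed in the test of clone size. Il7r was lower in large than in small CD8 clones, by -0.74 ± 0.08 (log2, SE; edgeR, adjusted p = 0.00012), and the other 7 tested did not pass, with a list median of -0.02. In CD8 against CD4 T cells Jak1 (0.25) and Runx3 (0.28) were higher and Il7r, Stat5a, Stat5b, Runx1 and Bcl11b lower, by -0.22, -0.47, -0.75, -1.21 and -0.12. In expanded against singleton CD4 T cells Runx3 was higher (0.75) and Il7r, Stat5a, Stat5b and Myb lower, by -1.12, -0.59, -0.69 and -2.23. Over all genes 2.35%, 29.9% and 8.84% passed in these comparisons, in the order given. Expanded CD4 and large CD8 clones had more Trgv2 RNA and less Il7r RNA, and a link between these was not tested. Tcf7 was lower there as well, by -0.74 in large CD8 clones and -1.77 in expanded CD4 T cells.

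Of the 15 γδ program genes 14 were tested in CD8 against CD4 T cells and 10 were lower, among them Il17a (-5.54) and Zbtb16 (-3.51), where 15.7% of all genes were lower. In expanded against singleton CD4 T cells Tcf7 (-1.77) and Zbtb16 (-2.11) were lower, of 7 tested. In large against small CD8 clones Tcf7 and Tmem176b were lower of 5 tested, where 1.14% of all genes were. The αβ constant genes Trac, Trbc1 and Trbc2 gave 0 calls of 3 in the comparisons of CD8 with CD4, of clone sizes and of genotypes. Of 5 genes of the CD3 receptor complex and its partners, Cd3e and Cd3g were higher in large CD8 clones, by 0.24 and 0.43, where 1.21% of all genes were higher. In CD8 against CD4 T cells Cd3e and Cd3d were higher, by 0.14 and 0.33, and Cd247 lower, by -0.69. In expanded CD4 T cells Cd3g was higher, by 0.39, where 4.07% of all genes were higher. Rag1, Rag2, Dntt and Ptcra, which act in receptor assembly in the thymus, were too low to test, but for 1 of the 4 in the genotype comparison of CD8 T cells, which did not pass.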

How the data were processed

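The 6 pools were analysed, each with an RNA and a receptor library. The values used are UMI counts per gene and cell, deposited by the authors without normalization; the file headers name Cell Ranger 6.0.1 as the tool. The submitters' processing notes name the mm10 genome. The α and β contigs, with the authors' clonotypes, come from the same tool. The 7 genes and all gene lists were chosen with earlier results of these data known. No other steps are given in the sources used here.

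Cells needed 500 genes and at most 10% mitochondrial UMIs, which kept 17962 of 18374 barcodes. Per pool, the cells with the highest Scrublet scores (a share that grew with the number of barcodes; 586 cells in all) were removed as doublets. Clusters (scanpy 1.11.5, leidenalg 0.10.2, resolution 1, 2000 variable genes, 30 components, 15 neighbours) left out 107 receptor genes. αβ CD8 T cells had a contig, at least 2 UMIs of Cd8a and Cd8b1 and none of Cd4, and αβ CD4 T cells a contig, at least 1 Cd4 UMI and none of Cd8a or Cd8b1. The 131 cells of the γδ cluster with a contig were not counted as γδ T cells, and 3747 cells were in no class. Clone size was counted within a pool.

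Sums of UMIs over the cells of a class in each pool entered edgeR 4.0.16 (R 4.3.3; TMM, filterByExpr, quasi-likelihood, Benjamini-Hochberg over all genes tested, threshold 0.05). Standard errors were derived from the F statistic. Genotype fits had an amyloid and a tau term, fits within pools had the pool as a block. The code was tested on simulated data. Replicate numbers mark the sequencing run in the labels, and pools with the same number deviated together (correlation 0.110 in γδ, 0.249 in CD8 and 0.240 in CD4 T cells). Alternatives were DESeq2 1.42.0, its size factors, no filter on low counts, each pool left out, the block added or removed, doublets kept, classes from named clusters, non-naive cells, other clone sizes and no shared receptors. Means over pools without WT-1 were added after the data were seen. Exact binomial intervals (95%) and floors (3 counts) cover counting error only. The 7 members and the listed genes are named by list, and the genes of highest correlation by rank. Some items are not reported here. Cells carry no label of the mouse they came from, so p-values measure the spread between pools.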

Additional observations from a re-analysis of the deposited data

How the results depend on the processing

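The comparisons of CD8 with CD4 T cells and of clone sizes rest on the pool as a block and on how cells were classed. In CD8 against CD4 T cells 5 members were called (Trgv2, Tcrg-C2, Tcrg-V6, Tcrg-C1 and Trdv4). Trgv2 was chosen on expanded CD8 cells, so its calls in this comparison, here and below, are a description and not support. With no replicate block and with doublets kept 2 were called (Trgv2 and Tcrg-C2), by DESeq2 3 (these and Tcrg-C1), with classes from named clusters 3 (these and Tcrg-C4, which was not among the 5), and leaving out single pools gave 3 to 6, Trgv2 and Tcrg-C2 among them each time. Tcrg-C1 turned to 0.032 with classes from named clusters. Over all genes, 865 were higher and 990 lower of 10138 with no block, and 1037 and 1250 of 10866 by DESeq2. With named clusters 1783 were higher and 1991 lower of 10699, and with doublets kept 1557 and 1719 of 10941. For expanded against singleton CD4 T cells (3 called), 1 was called with no replicate block, 0 with classes from named clusters, where none could be tested, and 0 among non-naive cells, and Trdv4 turned to 0.14 with doublets kept. Over all genes, 330 were higher and 365 lower of 7840 with no block. Among non-naive cells 22 were higher and 51 lower of 6821. For large against small CD8 clones (3 called), 0 were called with no replicate block and 0 when large began at 10 cells. Over all genes, 113 higher and 107 lower of 9367 became 8 and 10 of 8500 with no block. At 10 cells they became 45 and 58 of 9846. The described log2 difference of Trgv2 between expanded and singleton CD8 T cells (2.34) was 1.45 among non-naive cells and 1.80 with each clone counted once.

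In the genotype comparisons, where 0 members were called, CD8 T cells gave 1 for amyloid by DESeq2, 4 for amyloid and 1 for tau with no filter on low counts. Over all genes in CD8 T cells, DESeq2 called 54 higher and 15 lower of 11720 for amyloid. With no filter 326 were higher and 237 lower of 18652 for amyloid, and 90 and 143 for tau. CD4 T cells gave 3 for amyloid with no filter, and for tau 1 with the sequencing run as a replicate block, 1 by DESeq2, 4 with no filter and 0 to 1 when single pools were left out. Over all genes in CD4 T cells, no filter gave 93 higher and 40 lower of 16603 for amyloid, and 57 and 98 for tau. For tau the block gave 14 higher and 60 lower of 10259, and DESeq2 1 and 10. Trgv2 with amyloid in CD4 T cells turned to -0.037 with classes from named clusters. The replicate block changed no other call of a member in these comparisons. The cause of these changes was not tested. Small clones and the WT-1 pool, with 31 γδ T cells and 15 expanded CD4 T cells, limit the depth.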

Other observations

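Trdc and Trgv2 RNA was also found in clusters that were not named CD8, CD4 or γδ. A cluster led by Fcer1g and Ncr1, genes of NK and innate-like T cells, held 157 cells without an αβ chain, of which 62.4% had a Trdc UMI, 68.8% Trgv2, 48.4% Tcrg-V1 and 43.9% Tcrg-V4, while 13.4% had Trdv4 and 1.27% Tcrg-V6. In these cells 65.0% had Ncr1 and 82.8% Cd3e. Its 186 cells with an αβ chain, of which 106 belong to the CD8 and 4 to the CD4 class, had Trdc in 13.98% and Trgv2 in 43.5%. A small cluster led by Ptgs2, Il1r1 and Cd163l1 held 36 cells without an αβ chain, with Tcrg-V6 in 72.2%, Trdv4 in 69.4% and Trdc in 33.3% of them.

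In the γδ cluster itself, the 131 cells with an αβ chain had Tcrg-V6 in 49.6%, Trdv4 in 48.1%, Trdc in 43.5% and Trgv2 in 37.4% of cells, against 93.6%, 94.7%, 74.7% and 47.7% of the 738 cells without one. Among the 698 CD8 clones of at least 2 cells, the share of clonemates with a Trdc UMI around a Trdc-positive cell ran from 0 to 80.0% by pool, around negative cells from 0 to 0.972%. These shares rest on 1 to 6 Trdc-positive cells a pool, and WT-1 had none.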
